A study of Mus musculus with 12 samples.

Results

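The genes described here code for Wnt ligands, their receptors and the proteins that pass the signal on inside the cell. Their expression was compared between *Prdm6* del/del and wild type yolk sacs of mouse embryos at E10.5. They were chosen by symbol: every probe whose annotated gene symbol begins with Wnt, Fzd, Dvl, Axin, Tcf7, Ctnnb, Csnk1, Gsk3 or Porcn, or is Lrp5, Lrp6, Lef1 or Apc. The secreted inhibitors of the Sfrp and Dkk families were left out of this choice. It took 62 of the 20794 probes on the array, for 36 of 9030 genes with a symbol, and all 62 had a value on at least 8 of the 12 arrays. *Lrp5*, *Lrp6*, *Gsk3a*, *Gsk3b*, *Axin2* and *Tcf7* were not analysed here.

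Wnt proteins are secreted ligands that carry a lipid added by the acyltransferase Porcn, and they bind Frizzled receptors together with the co-receptors Lrp5 and Lrp6. Without ligand, a complex of Axin, Apc, casein kinase 1 and Gsk3 marks β-catenin for degradation. With ligand, Dishevelled proteins inactivate this complex, and β-catenin enters the nucleus and activates genes together with TCF/LEF factors. In the yolk sac of the mouse, the receptor Fzd5 is known to be needed for the growth of blood vessels.

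RNA from 6 yolk sacs of embryos homozygous for a *Prdm6* allele without exon 3 was set against the pooled RNA of 6 wild type yolk sacs (1 pool), on 12 cDNA arrays with 2 channels. The deletion was made in the germ line with a Cre deleter strain, so every cell of the embryo and its yolk sac carried it, and the effect of one cell type cannot be separated in RNA from the whole yolk sac. The del/del RNA carried the dye Cy5 on 5 arrays and Cy3 on 5 others. For the remaining 2 arrays, replicates 8 and 9, the labels name 1 dye for both channels. The labels do not say which arrays came from the same yolk sac, so the 12 arrays entered the test as if they were independent. The p-values and confidence intervals from limma below make no allowance for arrays that share a yolk sac. They can thus be too small and too narrow. With consecutive arrays averaged, as given below, some intervals were wider and others narrower. The pool is the only control, and its use leaves out the variation between wild type yolk sacs.

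The deposited values are log2 ratios of del/del over wild type, so 0 means equal signal and 1 means a doubled signal in del/del. Neither scale nor direction is stated with them, and both were taken from the signed mean ratios in the heat plot of the paper's supplement. A ratio gives no level, so whether a gene was expressed in the yolk sac at all cannot be read from these values, nor can the tissue be checked by the presence of its markers. *Prdm6* itself was not analysed here. Between 20011 and 20501 probes had a value on an array, and precision is limited by how many arrays there are. Replicates of opposite dye orientation correlated with a median Pearson's r of -0.12 over all probes (range -0.19 to 0.02), and those of the same orientation with 0.12.

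No Wnt pathway gene was up- or downregulated past the threshold in *Prdm6* del/del yolk sacs, taken as a Benjamini-Hochberg adjusted p under 0.05 over all probes in limma together with a change over 1.3-fold. Of the 62 probes 0 passed in either direction, and the lowest adjusted p was 0.201. Over the 20516 probes tested, 1.07% passed, 0.166% as higher and 0.907% as lower. At an unadjusted p under 0.05, 4 of the 62 probes (6.45%) differed from 0, against 11% of all probes, and 3 of these were higher and 1 lower. With a change over 1.3-fold required as well, 2 probes were left (3.23%, beside 2.7% of all probes). Before adjustment 4.84% of the pathway probes were thus higher, beside 4.64% of all probes, and 1.61% lower, beside 6.41%. In RNA from a whole yolk sac, fewer cells of a type and less RNA per cell cannot be told apart.

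The mean ratios lay close to 0. A mean over all arrays is the fitted mean from limma with the dye term. SDs and means within one dye orientation are of the values themselves. Where arrays are missing, the fitted and the plain mean can differ, as -0.19 and -0.31 for *Porcn* probe 17963 or 1.347 and 1.295 for *Wnt6* probe 2467. The median of the fitted means over the 62 probes was -0.01 on the log2 scale, beside -0.00 over all probes. Of the 62 means 30 (48.4%) were above 0, beside 48.9% of all probes. The median size of the mean, regardless of sign, was 0.08 for the pathway probes and 0.10 for all probes. A mean beyond 1.3-fold was found for 6 of 62 probes (9.68%), beside 7.07% of all. Of the 62 probes 0 had the same sign on every array measured, as 0.95% of all probes did.

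A p-value that misses the threshold does not show that expression was equal, so the 95% confidence intervals of the mean ratios were counted. The interval lay wholly within a 1.3-fold change for 40 of the 62 probes (64.5%), within 1.5-fold for 52 (83.9%) and within 2-fold for 55 (88.7%). The shares over all probes were 61.4%, 81.8% and 93.2%. With arrays of consecutive number averaged as presumed pairs from 1 yolk sac, 60 pathway probes could be fitted, and the counts were 39 (65%), 51 (85%) and 57 (95%). The shares over all probes in that fit were 62.1%, 83.7% and 94.7%. *Wnt6* probe 2467 and *Porcn* probe 17963, both with wide intervals, had too few complete pairs for that fit. The 7 probes for which a 2-fold change was not outside the interval were single probes of *Wnt4*, *Wnt5b*, *Wnt6*, *Wnt10b*, *Porcn*, *Csnk1a1* and *Csnk1d*. The plot of means with their intervals shows these wide intervals beside the narrow ones of the receptors and of most kinase probes.

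**Figure D1:**
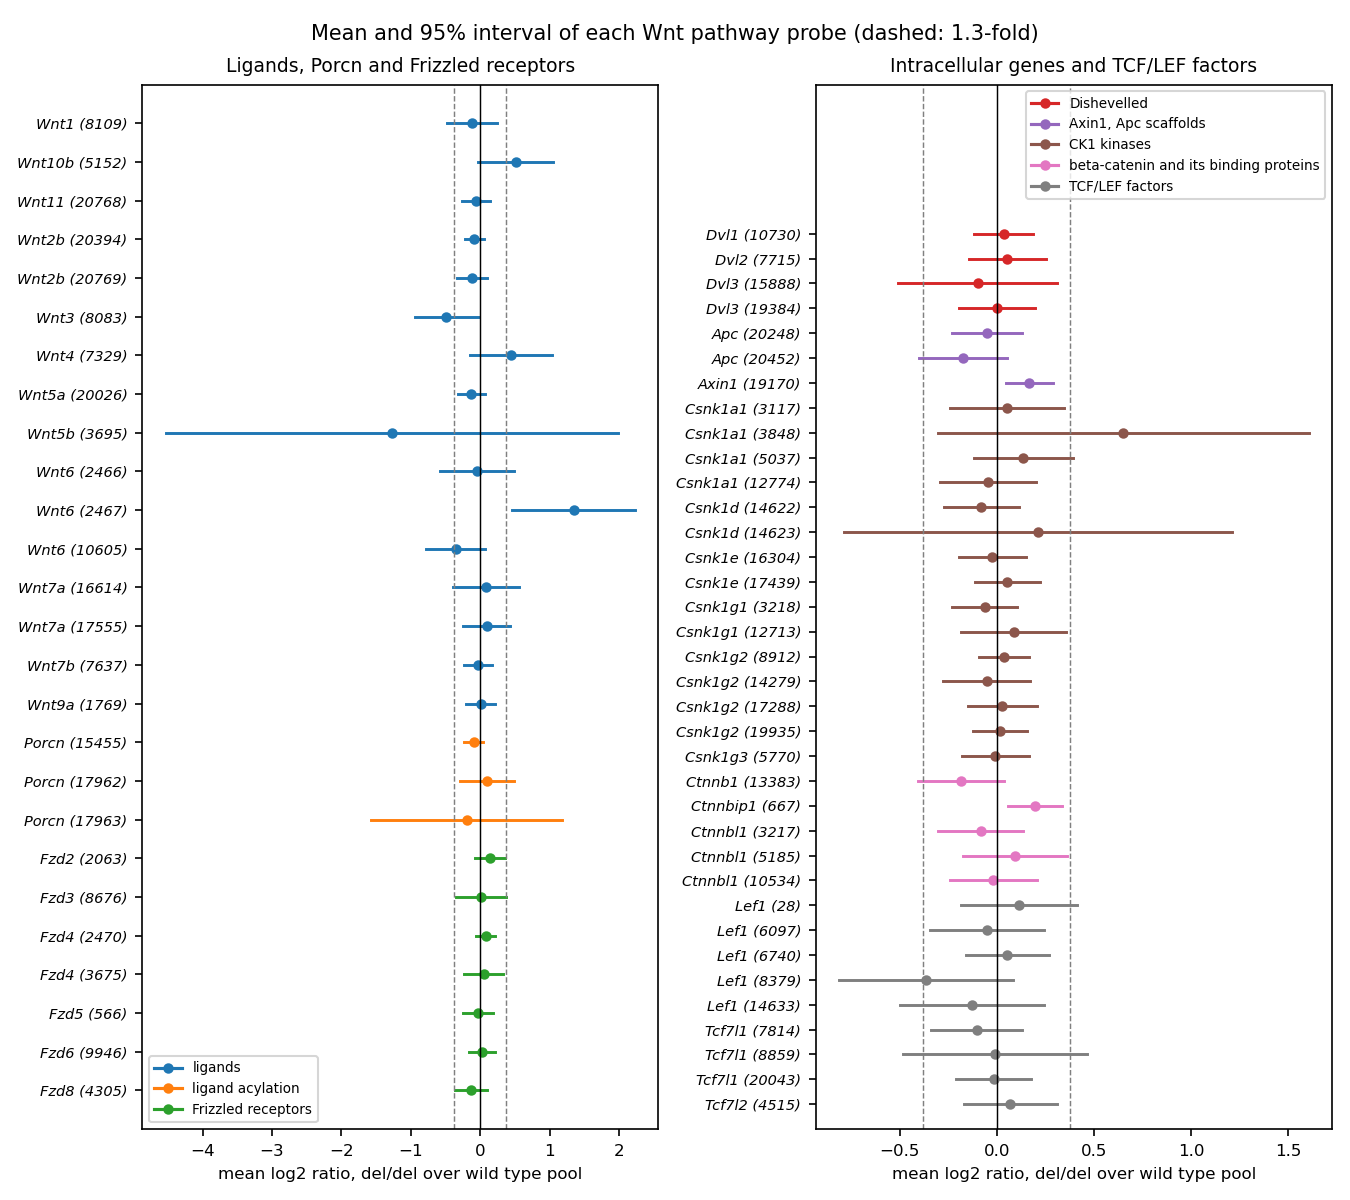
Mean log2 ratio (x axis, del/del over the wild type pool) of each of the 62 Wnt pathway probes, with gene symbol and probe number on the y axis. Points are means from the fit, lines their 95% confidence intervals, and dashed lines mark 1.3-fold; the left panel holds ligands, *Porcn* and Frizzled receptors, the right panel, on a finer scale, the genes inside the cell. The interval of 40 probes lies between the dashed lines, and the mean of *Wnt6* probe 2467 is the highest at 1.35.

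The ligands were measured by 16 probes for 12 genes, and their median log2 ratio was -0.05. The highest mean was that of probe 2467 of *Wnt6*, a ligand that acts in epithelia. It had a value on 9 arrays, with a lowest ratio of -0.09, a median of 1.07 and a highest of 3.42. The 2 highest values, 3.42 on replicate 4 and 3.26 on replicate 2, both came from arrays with del/del in Cy3, while 2 arrays lay just below 0 and 7 above. The mean was 1.35 (SD 1.34, n = 9, 95% interval 0.46 to 2.23), and limma gave an unadjusted p = 0.00719 and an adjusted p = 0.201. Within one dye orientation the mean was 0.88 over 5 Cy5 arrays (exact two-sided sign-flip permutation p = 0.125) and 1.81 over 4 Cy3 arrays (exact permutation p = 0.25).

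The other 2 probes of *Wnt6* had means below 0. Probe 2466 ranged from -2.72 to 1.82 over 12 arrays, with a median of 0.05 and a mean of -0.04 (SD 1.13). Its mean was 0.61 on the Cy5 arrays (exact sign-flip permutation p = 0.0625) and -0.86 on the Cy3 arrays (exact permutation p = 0.188). Probe 10605 ranged from -1.82 to 0.80, with a median of -0.46 and a mean of -0.35 (SD 0.72), and was lower on 8 of 12 arrays. On replicate 2, where probe 2467 read 3.26, probe 2466 read -2.72 and probe 10605 read -0.46. *Wnt6* was the only one of the 15 genes with more than 1 probe whose probe intervals did not all overlap. The interval of probe 2467 lay above that of probe 10605 (-0.78 to 0.08). That of probe 2466 (-0.57 to 0.49) overlapped both.

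*Wnt3*, a ligand that acts through β-catenin, had the only lower probe before adjustment. Its ratios ran from -1.78 on replicate 5 to 0.94 on replicate 10, with a median of -0.53, and 9 of 12 arrays were lower. The mean was -0.49 (SD 0.81, n = 12, 95% interval -0.94 to -0.04), with an unadjusted p = 0.0359 and an adjusted p = 0.403 from limma. It was -0.86 on the Cy5 arrays (exact sign-flip permutation p = 0.125) and -0.20 on the Cy3 arrays (exact permutation p = 0.688).

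The plot of single arrays shows the scatter behind the 4 probes with an unadjusted p under 0.05 and behind the other *Wnt6* probes.

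**Figure D2:**
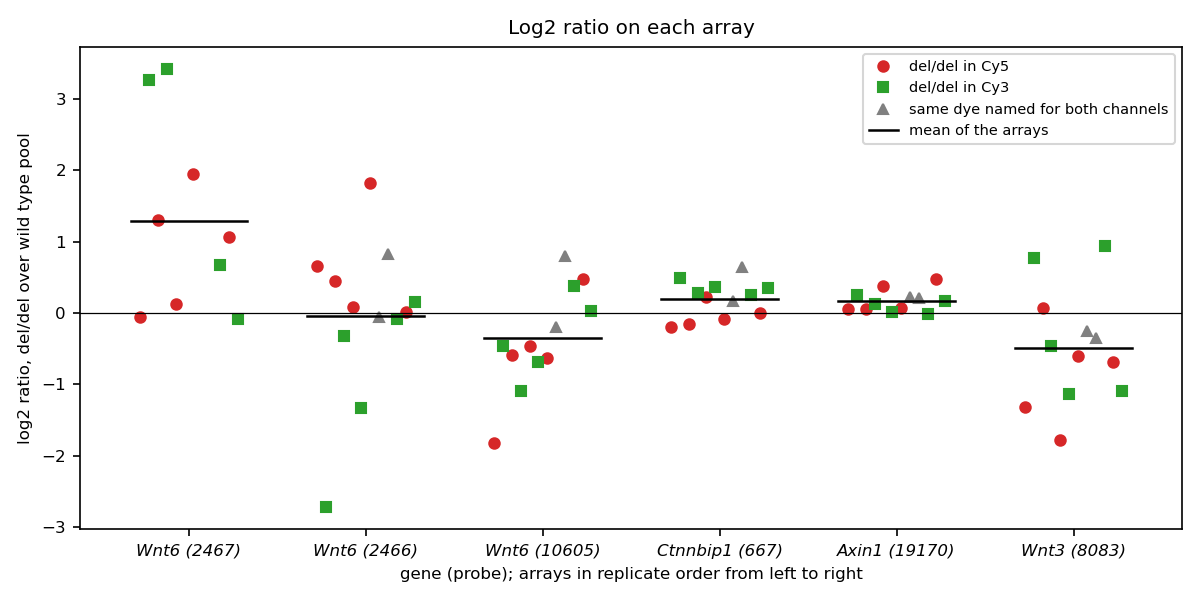
Log2 ratio (y axis, del/del over the wild type pool) on each array for the 3 probes of *Wnt6* and the probes of *Wnt3*, *Ctnnbip1* and *Axin1* (x axis). Each point is 1 array, in replicate order from left to right. Circles mark del/del in Cy5, squares del/del in Cy3 and triangles replicates 8 and 9. Black lines are plain means of the points. The 3 *Wnt6* probes differ in mean, and the 12 values of *Axin1* lie between -0.02 and 0.47.

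*Wnt5b*, a ligand of the pathways without β-catenin, had the lowest mean of all 62 probes, -1.28, and it rests on 1 array. Replicate 8 read -16.66, the only value of the pathway genes beyond 8 in size, while the other 10 arrays lay between -1.67 and 1.83. The median was 0.11, 7 of 11 arrays were higher, and the interval of -4.53 to 1.98 was the widest of the 62 (SD 5.19, adjusted p = 0.793 from limma). With values beyond 8 set to missing, or without replicate 8, its mean was above 0.

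*Wnt10b*, which lies next to *Wnt1* in the mouse genome and is known for holding back fat cell formation, was higher on 8 of 10 arrays. Its ratios ran from -0.87 to 1.39 with a median of 0.68, and its mean of 0.51 had an interval of -0.03 to 1.05 (adjusted p = 0.479 from limma). The neighbouring *Wnt1* had a mean of -0.12. *Wnt4*, known for its part in kidney and female genital tract formation, had a mean of 0.45 (interval -0.14 to 1.04, adjusted p = 0.583 from limma) and a highest value of 3.16 on replicate 2. The other 10 values of *Wnt4* lay at or below 1.33, and 4 of its 11 arrays were lower. With consecutive arrays averaged, its mean was 0.48 and its interval of 0.02 to 0.94 lay above 0, but it did not pass. Replicate 4 had no value for *Wnt4*, so this fit also left out its presumed partner, replicate 3, which read -0.41. The value of 3.16 on replicate 2 stayed in. The paper cites a separate study in which Prdm6 could directly regulate *Wnt4*.

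The remaining ligands had means nearer to 0. *Wnt5a*, the main ligand for oriented cell movement, had -0.13 and was lower on 9 of 12 arrays. *Wnt11*, which also acts in cell movement, had -0.06. *Wnt2b*, a ligand through β-catenin, had -0.08 and -0.12 by its 2 probes, *Wnt7a* had 0.09 and 0.10, *Wnt7b*, known from lung vessels, had -0.03, and *Wnt9a*, known from joints, had 0.01. The interval of *Wnt7b*, -0.23 to 0.17, and that of *Wnt9a*, -0.20 to 0.22, lay within 1.3-fold.

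*Porcn*, the acyltransferase of the ligands, was measured by 3 probes with means of -0.09, 0.10 and -0.19. The closest of them, probe 15455, ranged from -0.43 to 0.28 with a median of 0.00, and its interval was -0.23 to 0.05 (SD 0.23). Probe 17962, the highest, ranged from -0.83 to 1.26 with a median of 0.01 and a mean of 0.10 (SD 0.65, n = 11, adjusted p = 0.865 from limma). Probe 17963, the lowest, had values on 8 arrays only, from -3.35 to 2.72 with a median of 0.19, and 4 arrays lay on each side of 0 (mean -0.19, SD 2.04, adjusted p = 0.934 from limma). The interval of the first probe thus lay within 1.3-fold, and that of the last reached beyond 2-fold.

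The Frizzled receptors *Fzd2*, *Fzd3*, *Fzd4*, *Fzd5*, *Fzd6* and *Fzd8* were measured by 7 probes with means from -0.14 to 0.15, and all 7 intervals lay within 1.3-fold. With consecutive arrays averaged 6 of the 7 did, and the upper end for *Fzd3* was 0.38, at the edge of that range. *Fzd2* was the highest, with ratios of -0.51 to 0.86, a median of 0.12 and a mean of 0.15 (SD 0.40, n = 12, interval -0.07 to 0.36, adjusted p = 0.638 from limma). *Fzd8* was the lowest, with ratios of -0.72 to 0.72, a median of -0.10 and a mean of -0.14 (SD 0.40, n = 12, interval -0.37 to 0.09, adjusted p = 0.685 from limma). Both genes had arrays on each side of 0.

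*Fzd5*, the receptor needed for yolk sac vessels, had a mean of -0.03 (SD 0.42, n = 12, interval -0.24 to 0.19, adjusted p = 0.951 from limma), with 7 arrays higher and 5 lower. *Fzd4*, a receptor of endothelial cells that also binds the ligand norrin, had 0.08 (SD 0.19) and 0.05 (SD 0.58) by its 2 probes. *Fzd3*, known from axon guidance, and *Fzd6*, known from hair orientation, had 0.01 and 0.03.

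The 3 Dishevelled genes, which relay the signal from the receptors, had means between -0.10 and 0.05 over 4 probes. *Dvl2* was the highest, with ratios of -0.83 to 0.56, a median of 0.09 and a mean of 0.05 (SD 0.38, n = 12, adjusted p = 0.863 from limma). *Dvl3* was the lowest by probe 15888, with ratios of -1.14 to 1.18, a median of 0.05 and a mean of -0.10 (SD 0.68, n = 12, adjusted p = 0.878 from limma), while its probe 19384 had 0.00. *Dvl1* had 0.03 (SD 0.23).

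*Axin1*, the scaffold on which the destruction complex is built, showed the smallest scatter of the 62 probes. Its ratios ran from -0.02 to 0.47 with a median of 0.15, and 11 of 12 arrays were higher. The mean was 0.17, a 1.12-fold ratio (SD 0.15, n = 12, interval 0.05 to 0.29), with an unadjusted p = 0.0108 and an adjusted p = 0.245 from limma. Both dye orientations lay above 0, with 0.21 on the Cy5 arrays (exact sign-flip permutation p = 0.0625, the smallest that 5 arrays allow) and 0.11 on the Cy3 arrays (exact permutation p = 0.188). The interval lay within 1.3-fold, also with consecutive arrays averaged (0.03 to 0.31).

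*Apc*, the partner of Axin in that complex, had a mean below 0 by each of its 2 probes, and neither passed. Probe 20452 had ratios of -0.70 to 0.60, a median of -0.31 and a mean of -0.17 (SD 0.40, n = 12, interval -0.40 to 0.05, adjusted p = 0.583 from limma), lower on 8 of 12 arrays. Probe 20248 had a mean of -0.05.

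Casein kinase 1 isoforms, which phosphorylate β-catenin, Apc, Dishevelled and Lrp6, were measured by 15 probes for 6 genes, and the median of their means was 0.03. For *Csnk1a1*, the isoform that primes β-catenin for Gsk3, 4 probes gave means of -0.05, 0.05, 0.14 and 0.65. The highest was probe 3848, whose values on 10 arrays ran from -1.85 to 2.31 with a median of 0.78 (mean 0.65, SD 1.41, interval -0.30 to 1.61, adjusted p = 0.629 from limma). Its mean was 0.34 without replicate 10 and 1.10 without replicate 6. It was higher on 8 of 10 arrays, whereas the other 3 probes of the gene had 7, 7 and 5 of 12 arrays higher.

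The lowest kinase probe was 14622 of *Csnk1d*, an isoform known from the circadian clock, with ratios of -0.84 to 0.34, a median of 0.09 and a mean of -0.08 (SD 0.41, n = 12, adjusted p = 0.783 from limma). Its other probe, 14623, scattered from -1.79 to 3.63 (mean 0.21, SD 1.59, n = 11). *Csnk1e*, which acts on Dishevelled, had -0.02 and 0.06. The isoforms at the cell membrane, *Csnk1g1*, *Csnk1g2* and *Csnk1g3*, had 7 probes between -0.06 and 0.09. The 4 probes of *Csnk1g2* gave -0.05, 0.02, 0.03 and 0.04, and each of their intervals lay within 1.3-fold.

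*Ctnnb1*, which codes for β-catenin, had ratios of -0.79 to 0.48 with a median of -0.30, and was lower on 8 of 12 arrays. Its mean of -0.18 (SD 0.41, interval -0.40 to 0.04) had an adjusted p = 0.543 from limma. All 5 Cy5 arrays were lower, with a mean of -0.50 (exact sign-flip permutation p = 0.0625), while the Cy3 arrays had a mean of -0.02 (exact permutation p = 0.938). *Ctnnb1* was the lowest of the 5 probes in its group.

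*Ctnnbip1*, a small protein that keeps β-catenin from TCF factors, was the highest of this group. Its ratios ran from -0.20 to 0.65 with a median of 0.24, and 9 of 12 arrays were higher. The mean was 0.19, a 1.14-fold ratio (SD 0.26, n = 12, interval 0.06 to 0.33), with an unadjusted p = 0.0102 and an adjusted p = 0.238 from limma. The 3 arrays below 0, replicates 1, 3 and 7, all carried del/del in Cy5. The mean was -0.04 on the Cy5 arrays (exact sign-flip permutation p = 0.625) and 0.35 on the Cy3 arrays (exact permutation p = 0.0625). *Ctnnbl1*, named for its likeness to β-catenin and known from RNA splicing, had means of -0.08, -0.02 and 0.09 by 3 probes.

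The TCF/LEF factors, which carry the signal to DNA, were measured by 9 probes for *Lef1*, *Tcf7l1* and *Tcf7l2*, with a median mean of -0.02. The 5 probes of *Lef1* gave means from -0.36 to 0.12. The highest, probe 28, ranged from -0.42 to 1.14 with a median of 0.04 (mean 0.12, SD 0.48, n = 12, adjusted p = 0.798 from limma). The lowest, probe 8379, ranged from -2.37 on replicate 5 to 0.94 on replicate 1, with a median of -0.32 (mean -0.36, SD 0.75, n = 12, interval -0.81 to 0.08, adjusted p = 0.555 from limma), and was lower on 10 of 12 arrays. Without replicate 5 the mean of probe 8379 was -0.17, and without replicate 4 that of probe 28 was 0.01. The intervals of the 5 probes overlapped. *Tcf7l1*, mainly a repressor, had -0.10, -0.02 and -0.01, and *Tcf7l2*, known from the gut epithelium, had 0.07 (interval -0.17 to 0.31).

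Probes of one gene often differed in sign. Of the 15 genes with more than 1 probe, 10 had probe means on both sides of 0, and the median distance between the lowest and the highest probe mean of a gene was 0.12. The other 21 genes rest on 1 probe each, *Ctnnb1*, *Axin1*, *Ctnnbip1* and *Wnt3* among them.

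The scatter between arrays was wider for the ligands than for the kinases. The median SD was 0.66 for the 16 ligand probes and 0.35 for the 15 kinase probes, beside 0.42 for the 62 probes together and 0.41 for all probes tested. Of the ligand probes 11 of 16 had an SD above the median of all probes, and of the kinase probes 4 of 15. TCF/LEF factors had a median SD of 0.56, Frizzled receptors 0.40 and Dishevelled genes 0.36. Single probes of a group did not follow it, such as probe 20394 of *Wnt2b* with 0.22 and probe 14623 of *Csnk1d* with 1.59. The difference in SD between the groups of genes was not tested. At least 1 array was missing for 5 of the 16 ligand probes, 2 of 3 *Porcn* probes and 2 of 15 kinase probes. None was missing for the other groups, such as the 7 Frizzled probes. The count was 9 for the 62 probes together and 2359 for the 20516 probes tested. The part of signal strength in this scatter was not tested, as no spot intensities entered the analysis.

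**Figure D3:**
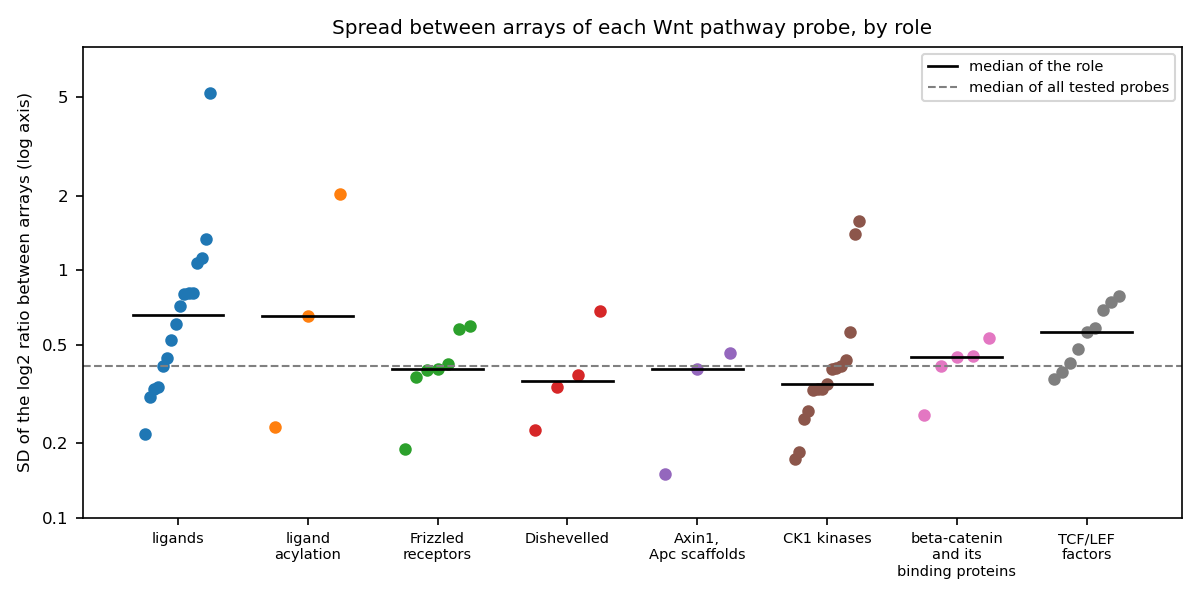
SD of the log2 ratio between arrays (y axis, log scale) of each of the 62 Wnt pathway probes, grouped by role (x axis). Each point is 1 probe, black lines are medians of a role, and the dashed line is the median of all probes tested, 0.41; the ligand points reach from 0.22 to 5.19 and the kinase points from 0.17 to 1.59.

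Dye orientation moved with the ratios of the pathway probes, as it did with those of all probes. For 43 of the 62 probes (69.4%) the mean over the Cy5 arrays and the mean over the Cy3 arrays had opposite signs, as for 65.8% of all probes tested. Of the 43 probes, 26 were lower in Cy5 and higher in Cy3, and 17 the reverse. Over all probes tested, these counts were 8087 and 5422. The dye term itself had an adjusted p under 0.05 in limma for 3 of 62 probes (4.84%), beside 12.2% of all probes. These were probe 6740 of *Lef1* (means 0.58 in Cy5 and -0.44 in Cy3), probe 20248 of *Apc* (0.35 and -0.45) and probe 3217 of *Ctnnbl1* (0.35 and -0.52). The *Lef1* probe was above 0 on each of the 5 Cy5 arrays and below 0 on each of the 5 Cy3 arrays. No other *Lef1*, *Apc* or *Ctnnbl1* probe had a dye term past the threshold.

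Over all probes tested, 3365 were higher and 3642 lower in both orientations. Of the 62 pathway probes 19 had the same sign in both, 11 of them higher and 8 lower. *Wnt6* probe 2467, *Wnt10b* and *Axin1* were among the higher ones, and *Wnt3*, *Ctnnb1* and *Lef1* probe 8379 among the lower ones. The plot of one orientation against the other shows most pathway probes in the quadrants of opposite sign, with *Wnt6* probe 2467 apart from them.

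**Figure D4:**
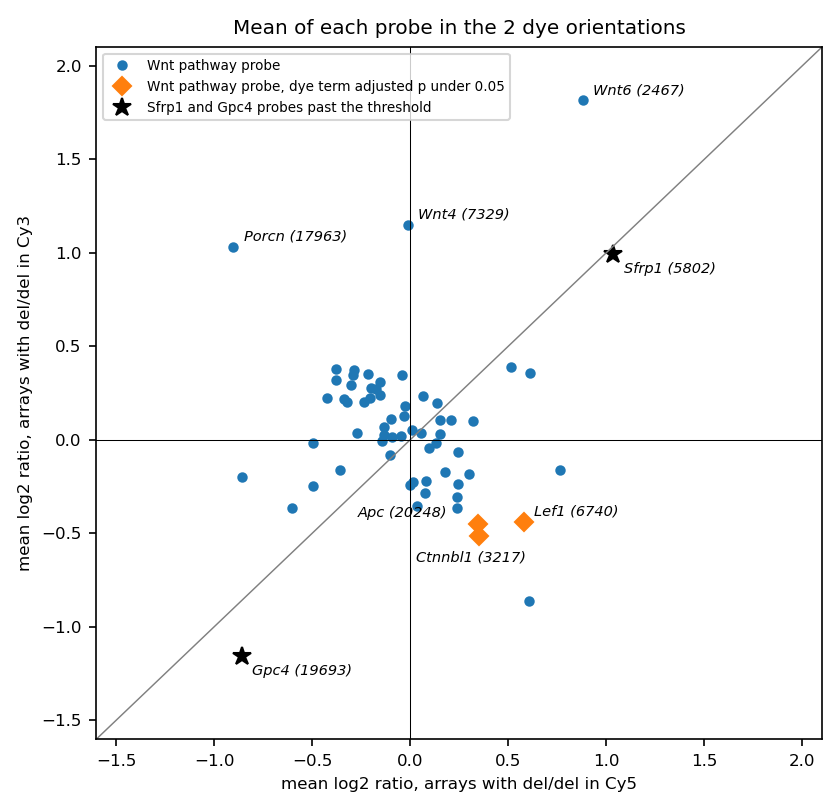
Mean log2 ratio of the Cy3 orientation (y axis, del/del in Cy3 on 5 arrays) against that of the Cy5 orientation (x axis, also 5 arrays), with fewer arrays where values are missing. Circles are Wnt pathway probes, diamonds the 3 with a dye term past an adjusted p of 0.05, stars the probes of *Sfrp1* and *Gpc4*, and the diagonal marks equal means; 43 of the 62 probes lie in the quadrants of opposite sign, and both stars lie close to the diagonal.

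Per array, the median of the pathway probes stayed between -0.09 and 0.08, and between 25 and 36 of them were above 0. The lowest median was that of replicate 3 and the highest that of replicate 10.

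Outside these genes, 98 further genes of the pathway from 6 lists were measured by 154 probes. Of these 2 probes (1.3%) passed, 1 higher and 1 lower, beside 1.07% of all probes tested. At an unadjusted p under 0.05 in limma, 19 of the 154 probes differed from 0, beside 11% of all probes. Of the 154 probes 4 were thus higher and 15 lower, beside 4.64% higher and 6.41% lower of all probes. A gene is counted here and below as changed if at least 1 of its probes passed. Of 10 genes measured in the list of inhibitors at the ligands or receptors, 1 rose, *Sfrp1*, which binds Wnt proteins and Frizzled receptors. The study singled out this gene on these arrays, so its rise here is not independent evidence. The paper also states that quantitative RT-PCR of selected genes bore out its array data, and its methods list primers for *Sfrp1*. On the arrays the ratios of *Sfrp1* ran from 0.54 to 1.48 with a median of 1.06, and the 12 arrays lay above 0. Its mean was 1.0 (SD 0.28, n = 12, adjusted p = 8.29e-05 from limma), beside 0.15 for *Fzd2*, the highest of the Frizzled means, and -0.18 for *Ctnnb1*. The other genes of that list, *Dkk3*, *Dkkl1*, *Frzb*, *Kremen1*, *Notum*, *Sfrp2*, *Sfrp4*, *Sostdc1* and *Wif1*, did not pass. The median over its 13 probes was 0.04.

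*Gpc4*, a cell surface heparan sulfate proteoglycan that binds Wnt proteins, fell. It was the only one of 4 genes to pass in the list of R-spondins, their receptors and Wnt secretion, whose others were *Gpc3*, *Lgr5* and *Rspo3*. Probe 19693 had ratios of -1.55 to -0.29 with a median of -1.0, and all 12 arrays were lower. The mean was -0.97 (SD 0.32, n = 12, adjusted p = 9.93e-05 from limma), with -0.86 on the Cy5 arrays and -1.16 on the Cy3 arrays (exact sign-flip permutation p = 0.0625 each, the smallest that 5 arrays allow). The other probe of *Gpc4*, 741, ranged from -1.01 to 0.40 and was lower on 7 of 12 arrays, with a mean of -0.34 and an adjusted p = 0.207 from limma. The 2 *Gpc4* probes thus shared the direction and differed in size.

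In the other 4 lists 0 genes passed in limma. Of 17 nuclear co-factors, 6 of 25 probes had an unadjusted p under 0.05, 2 higher and 4 lower, beside 11% of all probes. Probe 6445 of *Nlk*, the kinase that phosphorylates TCF/LEF factors, came closest with a mean of -0.30 (adjusted p = 0.0795 from limma), while probe 7073 of this gene had -0.01. Probe 15049 of *Smarca4*, the chromatin remodeller BRG1, had 0.31 (adjusted p = 0.161 from limma) and its probe 16418 had 0.08. Of 21 planar polarity and non-canonical genes, 5 of 36 probes were lower before adjustment and 0 higher, beside 6.41% lower and 4.64% higher of all probes. *Ror1*, a receptor for Wnt5a, had the lowest adjusted p among them with a mean of -0.33 (adjusted p = 0.115 from limma).

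Of 22 other genes of the destruction complex and of protein turnover, 3 of 42 probes had an unadjusted p under 0.05 in limma, beside 11% of all probes. Of these 1 was higher and 2 lower, and the list median was 0.00. Genes widely used as targets of the pathway numbered 27, *Lef1* among them. Before adjustment 1 of their 40 probes was lower and 0 higher, beside 6.41% lower and 4.64% higher of all probes, and the median was 0.03. The lower probe belonged to *Msx2*, a homeobox gene, with a mean of -0.37 (adjusted p = 0.428 from limma).

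Marker genes of yolk sac cell types were measured on the same arrays. All 5 measured genes of primitive red cells fell, with a median of -1.22 over 13 probes, although only 1 of 4 probes of *Ank1* and 5 of 6 of *Hba-a1* passed. Further, 3 of 6 genes of mesenchyme and mesothelium and 2 of 3 of macrophages fell, with medians of -0.33 and -0.35. Of 7 visceral endoderm, 7 endothelial and 2 smooth muscle genes 0 passed, with medians of 0.04, -0.08 and -0.18. Before adjustment 0 of 12, 3 of 10 and 0 of 2 probes had a p under 0.05 in limma, beside 11% of all probes. Of 5 genes of the embryo proper, the heart muscle genes *Tnnt2* and *Myl7* rose. The others, *Pax6*, *Sox2* and *Tubb3*, did not pass, and the median over the 6 probes of this list was 0.00. Genes of the trophoblast were not analysed here. The part of these shifts in the ratios of the Wnt pathway genes was not tested.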

How the data were processed

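RNA from 6 *Prdm6* del/del yolk sacs and from a pool of 6 wild type yolk sacs was hybridized to 12 cDNA arrays with 2 channels. The authors deposited 1 normalized log2 ratio per probe and array, and how they normalized it is not given in the sources used here. The values were used as deposited. The annotation of the array gave 1 symbol to 12771 probes and none to 8023.

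Each probe with at least 8 values (20516 probes) was tested for a mean ratio other than 0 in limma (version 3.58.1, R 4.3.3; lmFit, then eBayes), with the labelling dye of del/del as a covariate. Replicates 8 and 9, with 1 dye named for both channels, had the dye code 0. Probes passed at a Benjamini-Hochberg adjusted p under 0.05 over all probes and over 1.3-fold change, both taken from the study's methods. Means within one orientation were compared with 0 by flipping signs exhaustively, an exact two-sided permutation test. The fit was run on simulated data with independent noise and known changes of 2-fold or more. That simulation covers neither smaller changes nor arrays that share a yolk sac.

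The members, gene lists and tests were chosen with earlier results of these data known. Every gene was named under its role. Full values were given for probes past the threshold or with an unadjusted p under 0.05, and for the highest and the lowest mean of each role. Of the 6 companion lists (inhibitors at the ligands or receptors, R-spondins and secretion, nuclear co-factors, planar polarity, destruction complex and turnover, targets) and the cell type markers, genes past the threshold were named. *Wnt10b*, *Wnt4*, *Fzd5* and the companion genes that did not pass were described in addition, after their values were seen. Alternatives changed the dye term, the dyes of replicates 8 and 9, the arrays used, the direction of the Cy3 arrays, centring and scaling, the averaging of consecutive arrays, the minimum of values, extreme values, the trend and robust options, the fold threshold and the averaging of probes.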

Additional observations from a re-analysis of the deposited data

How the results depend on the processing

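The count of Wnt pathway probes past the threshold was 0 higher and 0 lower under every alternative except 1. With the Cy3 arrays turned in sign, which leaves 10 arrays, 3 probes passed as higher (*Apc* 20248, *Ctnnbl1* 3217 and *Lef1* 6740, those with a dye term past the threshold), the median of the pathway probes was -0.0686, and 1022 of all probes were higher and 499 lower. Under this setting *Sfrp1* (0.02) and *Gpc4* probe 19693 (0.15) lost their calls. Without each array in turn, 0 pathway probes passed in either direction, their median lay between -0.01 and 0.02, and the lowest adjusted p of any of them was 0.0894, for *Wnt6* probe 2467 without replicate 12. Of all probes, 18 (without replicate 7) to 35 were then higher and 146 to 184 lower, with 21, 19 and 20 higher without replicates 1, 6 and 10. Of all probes, 34 were higher and 186 lower, beside 22 and 159 with no dye term, 21 and 148 on the 10 arrays with 2 dyes named, 10 and 103 with consecutive arrays averaged, 52 and 217 with no fold threshold, 13 and 119 at 1.5-fold, and 22 and 99 with probes of a gene averaged. Of the single probes with full values, none of which passed in the reported fit, these changed sign. With the Cy3 arrays turned, the means were 0.46 for *Wnt5b*, -0.47 for *Wnt6* 2467, -0.29 for *Porcn* 17962, -0.23 for *Fzd2*, 0.18 for *Fzd8*, -0.24 for *Dvl2*, 0.12 for *Dvl3* 15888, 0.19 for *Apc* 20452, 0.30 for *Csnk1d* 14622 and -0.20 for *Ctnnbip1*. *Wnt5b* had 0.30 on the 10 arrays and 0.28 without values beyond 8. Without each array in turn it ranged from -1.65 (without replicate 5) to 0.28 (without replicate 8), and *Porcn* 17962 from -0.0116 (without replicate 6) to 0.22 (without replicate 2). With probes of a gene averaged, *Porcn* had -0.0445, *Csnk1d* 0.0631 and *Lef1* -0.0743. The cause was not tested, beyond what each setting changes by construction. No paired analysis was possible because there is only 1 group of samples, so no replicate number is shared between groups. The study made 2 arrays per yolk sac, and the presumed pairs of consecutive arrays entered only as the averages given above, since the labels name no pairs.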
